A study of Mus musculus with 9 samples.

Results

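The genes of the proteasome were followed through 9 poly(A) RNA libraries of D2.0R cells (D2.OR in some labels), a line derived from a mouse mammary adenocarcinoma. The members are the 45 genes of the deposited table whose symbol is Psm, a letter from a to g and a number, without the immunoproteasome genes Psmb8, Psmb9 and Psmb10, out of 55487 Ensembl genes. Of these, 43 had enough counts to be tested, among 12813 genes tested in all. All cells carried the dye CellTrace Far Red (CTFR), which division dilutes, and were kept for 1 week in DMEM with 2% FBS. Sorting then parted label-retaining cells, which the labels call quiescent, from cells that had lost the label, called proliferative. The sample description names CTFRpos, bulk and CTFRneg samples, each numbered 1 to 3, but the same text stands on every library. None of the 9 libraries can therefore be assigned to a kind, and each is named by the number in its title. Values are given library by library, and also by block of titles (1 to 3, 4 to 6, 7 to 9) and by position within a block. Blocks and positions are title numbers, not conditions. The sources do not say whether the libraries came from separate cultures.

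The proteasome is the barrel-shaped protease that degrades proteins tagged with ubiquitin. Its core particle is built of alpha rings, which gate the entry, and beta rings, in which Psmb5, Psmb6 and Psmb7 carry the chymotrypsin-like, caspase-like and trypsin-like active sites. A regulatory particle caps the core, with ATPases (Psmc genes) that unfold substrates and a lid (most Psmd genes) that helps to bind substrates and removes their ubiquitin. The rule takes more than constitutive subunits. It holds 31 structural subunits, and also assembly chaperones (Psmd5, Psmd9, Psmd10 and the Psmg genes), alternative caps (Psme genes), the inhibitor gene Psmf1, the testis subunit gene Psma8 and the thymus subunit gene Psmb11. Each structural subunit was detected in every library. Psma8 had 0 counts in all 9 libraries and Psmb11 at most 3 counts in any. A count of 3 is the limit that 0 counts allow. It corresponds to 0.0742 CPM (counts scaled to a common library size) in library 7 and 0.164 CPM in library 9. This limit covers counting error only, as do the intervals below. Each interval compares a gene's highest and lowest library, picked from the same counts, so its fold tends to be too large.

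Library totals lay between 18732737 (library 9) and 41243036 estimated counts (library 7). Of 8 epithelial markers listed, Krt8 and Krt18 (simple epithelial keratins) lay at 146 to 662 and 38.0 to 156 CPM. Cdh1 lay at 5.46 to 13.0 CPM, Krt14 reached at most 1.31 CPM, and Epcam, Krt5, Cldn3 and Cldn7 at most 0.219 CPM. Of 8 mesenchymal markers, Vim (vimentin) lay at 3495 to 5849 CPM, and Dcn, Lum and Thy1 reached at most 0.592 CPM. Col1a1 (1100 to 4224 CPM), Col3a1 (394 to 2984), Pdgfra (227 to 865) and Pdgfrb (216 to 526) were also present in every library. Of 9 leukocyte and natural killer cell markers, 5 had 0 counts in every library (Ncr1, Klrk1, Klrd1, Nkg7 and Gzma), and the 9 summed to 2.79 to 11.0 CPM. Nearly all of this was Cd68, a macrophage and lysosomal marker, which was present in every library and variable, between 2.74 (library 5) and 11.0 CPM (library 7). Of 4 endothelial markers Cdh5 and Tie1 had 0 counts in every library, Pecam1 had 6 to 17 counts, and the 4 summed to 0.284 to 0.520 CPM. The part of such cells in the results was not tested. Mki67, a marker of dividing cells, was highest in libraries 2, 5 and 8, at 62.9, 106 and 149 CPM, against 4.98 to 28.1 CPM in the other 6.

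Proteasome gene promoters are known targets of NFE2L1, which binds antioxidant response elements, and of the CCAAT-binding factor NF-Y. The promoters of Psmb5 and Psmb6, catalytic subunits, and of Psmc6, the member of widest range, are shown because each holds the core of that element, and were chosen after the search. The sequences are from RefSeq on GRCm38.p6. They run from 250 bases before to 50 bases after the annotated start and are printed on the strand of the gene, with the core in capitals. The Psmb5 window is chr14:54617946-54618245 (minus strand), the Psmb6 window chr11:70525107-70525406 (plus strand) and the Psmc6 window chr14:45329574-45329873 (plus strand).
Psmb5: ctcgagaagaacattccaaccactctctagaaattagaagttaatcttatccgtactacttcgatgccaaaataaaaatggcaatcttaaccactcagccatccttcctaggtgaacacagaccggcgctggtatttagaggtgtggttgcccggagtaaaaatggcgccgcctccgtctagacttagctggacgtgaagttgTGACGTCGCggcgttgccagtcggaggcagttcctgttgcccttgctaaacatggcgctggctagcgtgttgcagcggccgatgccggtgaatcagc
Psmb6: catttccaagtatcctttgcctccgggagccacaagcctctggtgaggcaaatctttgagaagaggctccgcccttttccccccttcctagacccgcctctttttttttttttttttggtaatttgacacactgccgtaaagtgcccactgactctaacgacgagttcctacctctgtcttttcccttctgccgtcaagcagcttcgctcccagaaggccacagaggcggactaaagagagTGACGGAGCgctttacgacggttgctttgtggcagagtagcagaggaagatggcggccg
Psmc6: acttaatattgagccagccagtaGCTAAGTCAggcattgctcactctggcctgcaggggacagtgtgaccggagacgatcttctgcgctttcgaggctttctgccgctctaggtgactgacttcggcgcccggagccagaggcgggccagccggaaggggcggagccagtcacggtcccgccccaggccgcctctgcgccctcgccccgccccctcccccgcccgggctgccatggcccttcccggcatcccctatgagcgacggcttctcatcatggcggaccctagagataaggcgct

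The core searched was TGACNNNGC on either strand. It was found in 6 of 39 promoters of 36 tested members (15.4%), against 12.4% of all 32851 promoters of that length. CCAAT, on either strand, was found in 12 of the 39 (30.8%), against 37.4% of all promoters. A match is a run of letters, not a bound site, and neither share was set against the other genes by a test.

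None of the 43 tested proteasome genes differed 2-fold between any 2 libraries. A gene was called variable when a chi-square test found its 9 counts more dispersed than counting noise (Benjamini-Hochberg adjusted p under 0.05 over all genes) and log2 CPM spanned at least 1, that is 2-fold. By that rule 0 of 43 members were variable, against 28% of all genes tested and 15.7% of the 8703 genes whose median CPM lay within the span of the member medians (10.1 to 416 CPM). All 43 members varied by more than counting noise, as did 94.1% of all genes, and 6 of 43 did so once a dispersion of 0.01 was allowed for beyond counting noise, against 44.7% of all genes. At a lower minimum range of 0.58, or 1.5-fold, 10 members passed, against 57.2% of all genes. The members' ranges ran from 0.14 to 0.80 on the log2 scale. Their median was 0.38, against 0.69 over all genes tested and 0.56 in the band of like expression. In 39 of the 43 the range was below the median of all genes.

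**Figure D1:**
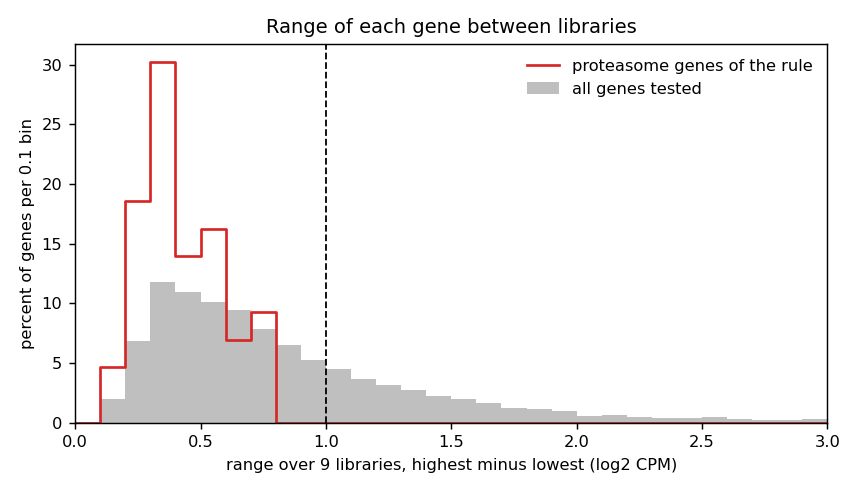
Share of genes (percent per bin of 0.1) by the range of log2 CPM over the 9 libraries, for all 12813 genes tested (grey bars) and the 43 tested proteasome genes (red line), with the 2-fold threshold dashed. No proteasome gene reaches the threshold, and the axis is cut at 3, beyond which some of the other genes lie.

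The small differences that remained shared an order in part. Library 7 was the highest for 17 members, library 9 for 16 and library 8 for 7, against 14.3%, 17.4% and 17.1% of all genes tested. Library 2 was the highest for 2 (15.5% of all genes) and library 4 for 1 (4.37%), and libraries 1, 3, 5 and 6 for 0 (12.7%, 6.22%, 6.35% and 5.98%). The lowest value lay in library 2 for 14 members, in library 1 for 12 and in library 5 for 8, against 18.2%, 11.4% and 8.58% of all genes. Libraries 3, 6, 8 and 9 were the lowest for 4, 2, 1 and 2 members (6.59%, 5.24%, 14.7% and 16.7% of all genes), and libraries 4 and 7 for 0 (4.26% and 14.4%). In library 7, 39 of the 43 members were above their own median, against 45.7% of all genes, and in library 3 4 were, against 42.1%.

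The proteasome score of a library is the median, over members, of the difference in log2 CPM from the gene's median library. It was -0.04, -0.08, -0.04, 0.03, -0.04, 0, 0.15, 0.01 and 0.13 in libraries 1 to 9, a span of 0.23 or 1.17-fold. Kendall's W, which is 1 when all members rank the libraries alike, was 0.36 over the 43 members and 0.48 over the 31 structural subunits. Over all genes tested W was 0.001. As a share of all counts, without scaling between libraries, the members held 0.477% in library 1 and 0.558% in library 7.

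**Figure D2:**
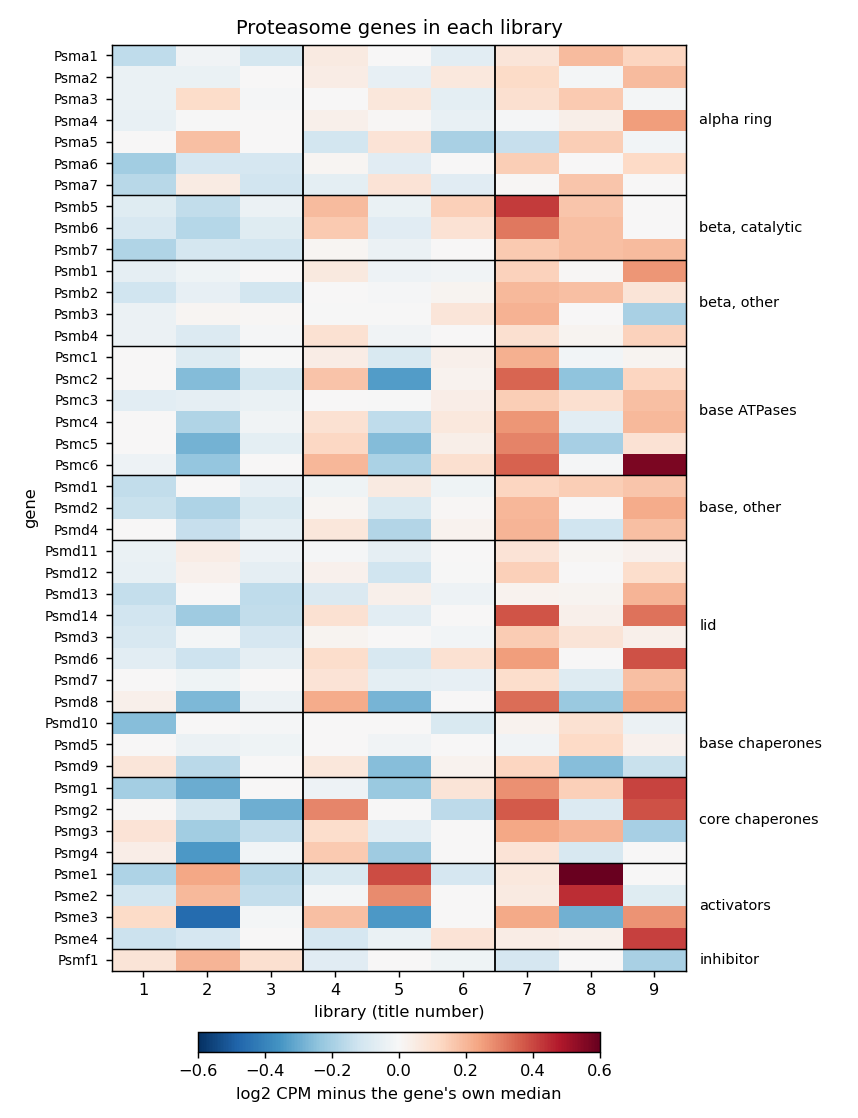
Each cell is the log2 CPM of a tested proteasome gene (vertical axis, grouped by role) in a library (horizontal axis, by title number, with lines between the blocks of titles) after subtracting that gene's median over the 9 libraries. Library 7 is above the median (red) for 39 of the 43 genes (45.7% of all genes tested) and library 3 for 4 (42.1%).

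By block, 6 members lay in all of libraries 1, 2 and 3 below the other 6, against 2.71% of all genes. They were Psma6, Psmb2, Psmb6, Psmb7, Psmc3 and Psmd14, all structural subunits. In libraries 7, 8 and 9 all of Psma1, Psmb2, Psmb7, Psmc3, Psmd1, Psmd3 and Psmg1 lay above the other 6 libraries, 7 of 43 members against 3.28% of all genes. The reverse patterns were held by 1 member (Psmf1, above in libraries 1 to 3, against 3.92%) and by 0 members (below in 7 to 9, against 4.1%). Libraries 4 to 6 stood above or below the rest for 0 members (0.039% and 0.0312% of all genes). With size factors as in DESeq2 9 (3.04% of all genes) lay below in 1 to 3 and 9 (3.57%) above in 7 to 9. With library totals alone the counts were 7 (2.52%) and 9 (3.46%).

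By position, libraries 2, 5 and 8 lay below the other 6 for 9 members, Psmc1, Psmc2, Psmc4, Psmc5, Psmd4, Psmd8, Psmd9, Psme3 and Psmg4. They lay above for 4, Psma5, Psma7, Psme1 and Psme2. Over all genes the shares were 20.1% and 19%, so the share of members below (20.9%) was near the background and that above (9.30%) was lower than it. With library totals alone the split was 6 below (15.3% of all genes) and 7 above (23.5%), so the balance of directions depended on the scaling. The same 3 libraries had the highest Mki67, and the part of dividing cells in these patterns was not tested. Libraries 1, 4 and 7 were above the others for Psmd9 and Psmg4 (6.34% of all genes) and below for 0 members (4.39%). Libraries 3, 6 and 9 stood apart for 0 members (5.15% of all genes above and 3.46% below).

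Compared only within its own block, the second library was the lowest of the 3 in every block for 16 members (29.5% of all genes) and the highest in every block for 7 (28.6%). The first was the highest in every block for 10 (15.4%) and the lowest for 0 (11.6%). The third was the highest for 4 (12.1%) and the lowest for 1, Psmd3 (11.5%).

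Among the alpha ring genes, which form the gated outer rings, all 7 kept within narrow limits, with ranges from 0.22 to 0.37. Psma5 was the widest, at 80.7, 91.5, 80.9, 74.7, 85.6, 70.6, 73.3, 89.4 and 79.8 CPM in libraries 1 to 9. Libraries 2, 5 and 8 were its 3 highest, as for 19% of all genes. Psma3 was the narrowest, with 81.8 CPM in library 6, its lowest, and a difference to library 8, its highest, of 1.16-fold (95% interval 1.10 to 1.22).

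The catalytic beta genes ranked the libraries in a largely shared order (W 0.87 over 3 genes). An exception was library 9, the highest for Psmb7 and the median library for Psmb5 and Psmb6. W over few genes is not comparable with W over 43, since short lists can reach high values without a shared order. Psmb5 and Psmb6 had wider ranges, 0.57 and 0.49, than any alpha ring gene, and Psmb7 did not (0.37). Psmb5, the chymotrypsin-like subunit gene (ENSMUSG00000022193, chromosome 14 at 54614119 to 54618022 of GRCm38), stood at 124, 118, 128, 149, 127, 144, 175, 147 and 131 CPM in libraries 1 to 9. Psmb6, the caspase-like subunit gene, stood at 86.1, 81.8, 87.7, 103, 88.0, 97.8, 115, 104 and 92.2 CPM. Psmb7, the trypsin-like subunit gene, stood at 101, 106, 106, 115, 112, 114, 127, 129.6 and 131 CPM in the same order. Libraries 1, 2 and 3 were the lowest for Psmb6 and Psmb7 (2.71% of all genes). Library 7 was the highest for Psmb5 and Psmb6 (14.3% of all genes). The span from the lowest to the highest library was 1.48-fold (95% interval 1.43 to 1.54) for Psmb5, and 1.40-fold (95% interval 1.34 to 1.47) for Psmb6. That of Psmb7 was smaller, with a 95% interval of 1.23 to 1.37. Of the other beta subunits, which carry no active site, Psmb3 was the widest, between 57.6 (library 9) and 76.3 CPM (library 7), and Psmb4 the narrowest, at 148 to 172 CPM.

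The ATPase genes of the base, which form the ring that unfolds substrates, also shared an order (W 0.85 over 6 genes). Psmc6 was the widest of all 43 members, at 155, 135, 158, 182, 139, 169, 202, 157 and 234 CPM in libraries 1 to 9. Library 9 exceeded library 2 by 1.74-fold (95% interval 1.67 to 1.81). Psmc2, the next widest of the ATPases, lay between 166 (library 5) and 266 CPM (library 7). Libraries 2, 5 and 8 were its 3 lowest, as for 20.1% of all genes. Psmc3 was the narrowest, between 169 (library 1) and 200.2 CPM (library 9). The ATPase score was -0.21 in library 2, -0.17 in library 5 and -0.04 in library 8, and reached 0.28 in library 7. Of the other base genes, Psmd2, a large scaffold subunit, lay between 366 (library 2) and 486 CPM (library 9), and Psmd1, the other large scaffold subunit, between 144 (library 1) and 179.7 CPM (library 9).

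The lid genes held both steady and less steady members. Psmd11, a scaffold subunit of the lid, had the narrowest range of all members, at 142 to 156 CPM. Psmd14, the deubiquitinase of the lid, stood at 99.7, 93.1, 97.7, 115, 104, 108, 141, 110.3 and 136 CPM in libraries 1 to 9. Each of libraries 1, 2 and 3 lay below the rest for this gene, as for 2.71% of all genes. Psmd8, another lid subunit and the widest, was lowest in libraries 2, 5 and 8, as were 20.1% of all genes. It stood at 101, 101 and 105 CPM there, against 119 to 154 CPM in the other 6.

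Per kilobase of the principal transcript, the assembly factors had medians of at most 20.0 CPM, against at least 29.9 CPM for the structural subunits. The core chaperone genes Psmg1, Psmg2, Psmg3 and Psmg4 help to pair and stack the rings, and none exceeded 19.0 CPM. Psmg1 was the widest, between 11.7 (library 2) and 19.0 CPM (library 9), a span of 1.63-fold (95% interval 1.41 to 1.88). Psmg3 was the narrowest, with a span of 1.36-fold (95% interval 1.19 to 1.55). Pomp, the maturation factor of the core particle, which the rule does not take, stood at 30.1, 33.9, 30.6, 30.4, 33.6, 30.9, 33.5, 35.7 and 31.5 CPM in libraries 1 to 9, highest in library 8. Among the base chaperones Psmd9 lay at 27.5 to 35.9 CPM and Psmd5 at 61.9 to 69.0 CPM. Psmd5 had the largest adjusted p of the 43 in the chi-square test with Benjamini-Hochberg adjustment (0.00919).

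The alternative caps went different ways. Psme1 and Psme2 encode the cap known to be induced by interferon gamma. Psme1 stood at 106, 142, 107, 113, 158, 112, 126, 182 and 121 CPM in libraries 1 to 9, and Psme2 at 70.3, 86.9, 68.7, 75.3, 92.5, 75.8, 78.6, 103 and 72.0 CPM. Both were highest in libraries 2, 5 and 8, without overlap with the other 6. Psme3, the subunit of the nuclear cap, stood at 151, 101, 139, 158, 109.9, 139.6, 164, 114 and 168 CPM, lowest in those 3 libraries, again without overlap. For these 3 genes that held under each of the 3 scalings, and over all genes 19% lay above and 20.1% below in that way. Psme4, which encodes the single-chain activator, was at 137, 139.9, 150.2, 140.0, 146, 159, 155, 154 and 199.9 CPM, highest in library 9. Psmf1, which encodes a proteasome inhibitor, was at 38.0, 41.6, 38.5, 34.3, 36.0, 35.4, 33.7, 36.1 and 31.5 CPM. It was highest in library 2 and lowest in library 9, where the proteasome score was -0.08 and 0.13.

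The 3 immunoproteasome genes, whose products replace the catalytic subunits, had wider ranges than any member. Psmb8 stood at 89.8, 122, 76.7, 81.1, 124, 70.1, 67.6, 138 and 52.0 CPM in libraries 1 to 9. Psmb9 stood at 13.0, 21.1, 9.65, 7.75, 22.1, 7.30, 6.08, 19.9 and 4.92 CPM and Psmb10 at 46.0, 72.5, 45.2, 37.4, 71.4, 42.2, 34.5, 77.3 and 31.2 CPM. All 3 were variable (28% of all genes), with a median range of 1.41. They were highest in libraries 2, 5 and 8, without overlap with the other 6, as were 19% of all genes. Ratios of counts within a library need no scaling. The ratio of Psmb8 to Psmb5 differed 2.67-fold between libraries 7 and 2, that of Psmb9 to Psmb6 4.88-fold between the same libraries, and that of Psmb10 to Psmb7 2.86-fold between libraries 9 and 2. Per kilobase of the principal transcript, Psmb8 amounted to 21.3% of Psmb5 in library 7 and 56.8% in library 2. Psmb9 amounted to 3.13% and 15.3% of Psmb6 in these libraries, and Psmb10 to 21.1% of Psmb7 in library 9 and 60.4% in library 2. The fold between libraries does not depend on the length used, whereas the percentages do: by union exon length Psmb10 reached 137% of Psmb7. Psme1 and Psme3 were also set against Psme4. The ratio of Psme1 to Psme4 spanned 1.97-fold, highest in library 8 and lowest in library 9, and that of Psme3 to Psme4 1.56-fold, highest in library 4 and lowest in library 2. The ratio of Psme1 to Psme2, partners in 1 cap, spanned only 1.19-fold over the libraries.

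**Figure D3:**
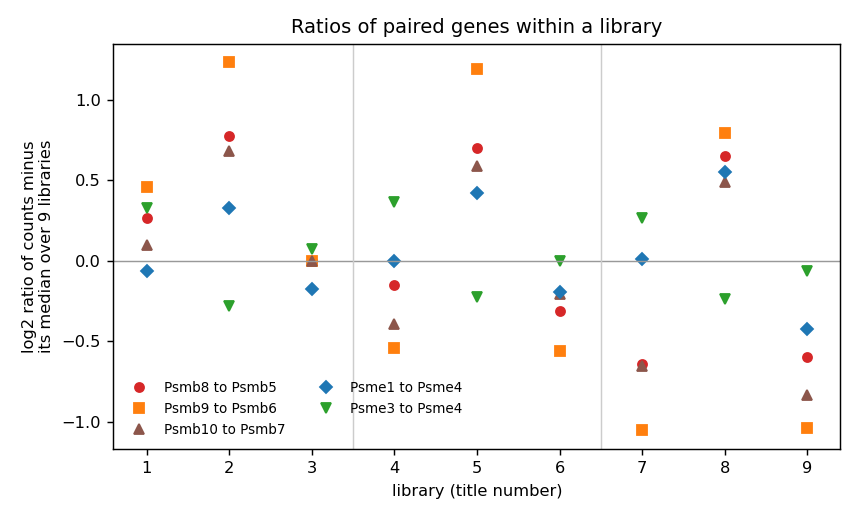
Log2 ratio of the counts of paired genes within each library minus the median of that ratio over the 9 libraries, by library title number, with 1 point a pair and library. Libraries 2, 5 and 8 have the 3 highest ratios of each immunoproteasome gene to its catalytic counterpart and of Psme1 to Psme4, and the 3 lowest of Psme3 to Psme4.

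Levels of different subunits can be compared only per length, here as CPM per kilobase of union exon length. The median over libraries was 145 for Psmb5, the highest of the 31 structural subunits, and 21.1 for Psmd13, a lid subunit and the lowest by this length. By the principal transcript Psmb5 was again the highest, and Psma3 the lowest at 29.9, with Psmd13 at 35.8. Union length counts the exons of all annotated transcripts, and Psma7 stood at 41.8 by that length but at 140.3 by the principal transcript. The median level of the 14 core subunits over that of the 17 regulatory subunits was 1.08, 1.12 and 1.14 in libraries 2, 5 and 8 and 0.862 to 1.02 in the other 6. By the principal transcript it was 1.36, 1.35 and 1.44 in these 3 libraries and 1.11 to 1.20 in the others. Libraries 2, 5 and 8 were thus the highest by both lengths, while the ratio itself depended on the length. By the principal transcript the regulatory median in library 2 was the value of Psmc5, 73.8. Relative to the score of the structural subunits, the ATPases stood at -0.15, -0.12 and -0.05 in these 3 libraries. The lid stood at 0.04, -0.01 and -0.006, and the other base genes at -0.08, -0.04 and -0.01. Among core lists, the alpha ring stood at 0.05, 0.06 and 0.14 and the catalytic beta genes at -0.09, 0.01 and 0.17. The other beta genes stood at 0.02, 0.04 and -0.0005.

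Of 11 other proteasome genes listed and found, 0 were variable, against the same 28%, with a median range of 0.47. Ube3c, a ligase bound to the proteasome, lay between 102 (library 2) and 197 CPM (library 9). Uchl5, a deubiquitinase of the cap, lay between 18.8 (library 2) and 36.1 CPM (library 9). Of 12 genes for regulators of proteasome genes and their partners 1 was variable, Mafg, a small MAF gene, between 106 (library 8) and 221 CPM (library 6). Nfe2l1, whose product raises proteasome genes when the proteasome is blocked, stood at 939, 749, 939, 928, 712, 928, 857, 644 and 937 CPM in libraries 1 to 9. It was lowest in libraries 2, 5 and 8, without overlap with the other 6, as were 20.1% of all genes. The proteasome score was -0.08, -0.04 and 0.01 in these libraries and -0.04 to 0.15 in the other 6. A relation of Nfe2l1 to the score was not tested. Nfe2l2, the gene of NRF2, stood at 198, 144, 204, 210.2, 133, 212, 226, 145 and 246 CPM. Like Nfe2l1, the listed regulators Nfe2l2, Mafg, Maff and Nfya were lowest in libraries 2, 5 and 8 without overlap. Keap1 and, narrowly, Nfyb were highest there. Of 14 ubiquitin supply and VCP genes tested 0 were variable, the widest being Ubqln4 (41.5 to 72.2 CPM), a ubiquitin receptor, and Uba6 (25.6 to 43.9 CPM), a ubiquitin-activating enzyme.

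Other complexes and the ribosome biogenesis genes give a scale for these ranges. Over all genes tested the median range was 0.69 and 28% were variable, and 15.7% in the band of like expression to the members. The COP9 signalosome, whose subunits are related to those of the lid, had a median range of 0.35 and 0 variable genes of 9, the widest being Cops6 (75.2 to 109.8 CPM) and Cops7b (11.3 to 15.7 CPM). The CCT chaperonin, a folding complex of the cytosol, had a median range of 0.82 and 0 variable genes of 8, the widest being Cct4 (160.4 to 319.6 CPM) and Cct8 (205 to 402 CPM). The translation initiation complex eIF3 had 2 variable genes of 13, Eif3c (357 to 826 CPM) and Eif3d (158 to 338 CPM). Ribosome biogenesis had 16 variable genes of 20 and a median range of 1.21, the widest being Nop14 (82.1 to 233 CPM) and Rrp12 (20.2 to 57.0 CPM). Library 7 had the highest and library 2 the lowest score of the proteasome genes, CCT, COP9, eIF3 and ribosome biogenesis. For the proteasome genes the lowest was library 1 under some of the alternative settings. Other libraries did not keep the same place. Library 1 scored -0.04 for the proteasome genes, -0.06 for COP9, 0.01 for CCT, 0.12 for eIF3 and 0.13 for ribosome biogenesis. Kendall's W was 0.36 for the 43 proteasome genes. It was 0.53 for COP9, 0.79 for eIF3, 0.92 for CCT and 0.94 for ribosome biogenesis, all shorter lists. The score spanned 0.23 for the proteasome genes, 0.33 for COP9, 0.58 for eIF3, 0.80 for CCT and 1.23 for ribosome biogenesis, and the differences between lists were not tested.

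**Figure D4:**
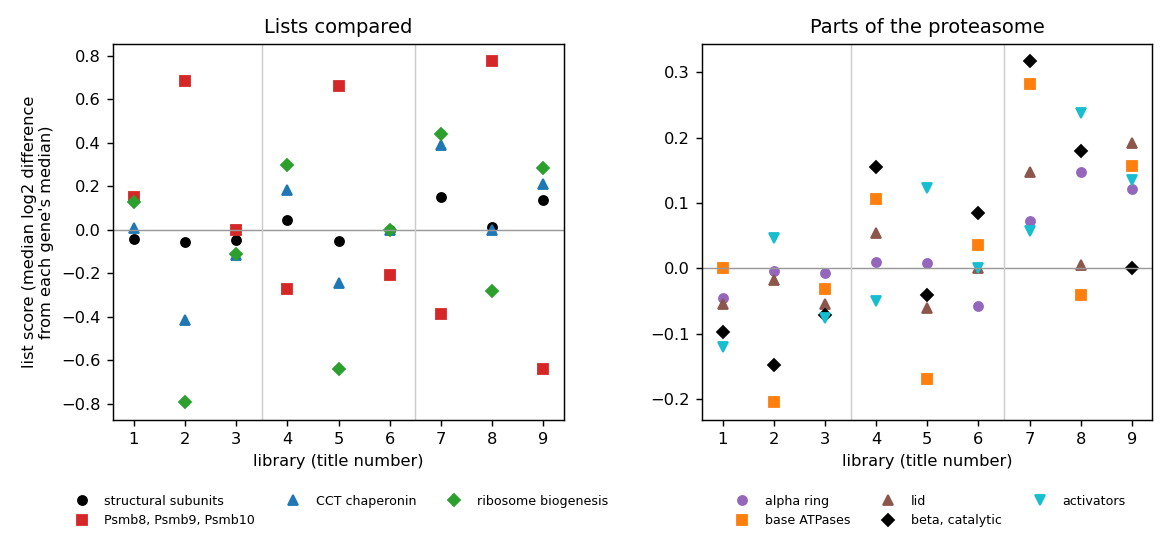
List score (median over genes of the log2 difference from each gene's median library) in each library by title number, for the 31 structural subunits and 3 other lists (left) and for 5 parts of the proteasome (right, on a finer scale). The structural subunits lie between -0.06 and 0.15, where the immunoproteasome genes reach 0.77 and ribosome biogenesis -0.79.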

How the data were processed

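Before deposit, the authors made estimated counts for each gene (RSEM is in the submitters' processing notes), and these values are whole numbers in the deposited table, not normalised. These notes list cutadapt 2.3, FastQC 0.11.8, STAR 2.7.8a, RSEM 1.3.3, MultiQC 2.7 and the build GRCm38, without roles. No source used here gives the annotation release or the use of strand. All 9 count columns matched a sample title, and 5 rows that name no Ensembl gene, with 0 counts, were left out.

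Counts were scaled with TMM factors (edgeR 4.0.16, R 4.3.3), and log2 CPM used a prior count of 2. The filter was filterByExpr without groups, with a minimum count of 10 and a minimum total of 15. Dispersion of the 9 counts around counting noise was tested by chi-square for each of 12813 genes kept, with Benjamini-Hochberg adjustment. The test shows that libraries differ, not which condition differs, and the spread may be technical. The code was tested on simulated data. Coordinates and lengths are from GENCODE on GRCm38. Of the members, 19 of 45 overlap another annotated gene, and 5 genes of the table are named as pseudogene copies of a Psm gene, so counts may be shared with them. No 2 libraries agreed within sampling noise.

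Named with values in every library are the catalytic subunits, Psmd14, the caps, Psmf1, the immunoproteasome genes, Nfe2l1, Nfe2l2 and Pomp. The widest and narrowest member of each role and the 2 widest genes of the other lists are also named. Psmc2, the per-length examples and the promoters were picked after their values were seen. Members and lists were chosen with earlier results of these data known. Alternatives were other scalings, filters, thresholds, prior counts and leaving out each library. The length of the principal transcript and the band of like expression were added after seeing the data.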

Additional observations from a re-analysis of the deposited data

How the results depend on the processing

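The count of variable members stayed at 0 with size factors as in DESeq2, with library totals alone, without a filter, with a filter on the mean (1 CPM or more), with a dispersion of 0.01 as extra noise and without each library in turn (0 to 0). It was 10 with a minimum range of 0.58. The count beyond counting noise was 43 under these scalings and filters (of 44 tested without a filter), 42 to 43 without 1 library, and 6 with a dispersion of 0.01, where 44.7% of all genes passed. The median range was 0.35 to 0.38 without 1 library. The score range was 0.19 to 0.23 without 1 library, lowest without library 7, where library 9 became the highest. Kendall's W was 0.31 with library totals alone, 0.48 over structural subunits only, and 0.31 to 0.42 without 1 library, lowest without library 7 and highest without library 2. The lowest score lay in library 1 instead of 2 with totals alone, without a filter, with the filter on the mean, and without library 2, 6 or 7. The core over regulatory ratio spanned 1.32-fold over the libraries by union length, and this span moved by less than 10% with the principal transcript. Since no library has a group there is no replicate spread, so a value was taken as moved when it changed by over 10%, a limit chosen after the values were seen. The cause of these shifts was not tested. No paired analysis was possible because the labels put no library in a group. Each tested member held at least 184 counts in its lowest library.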
